A study of Mus musculus with 12 samples.

Results

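The genes that write, erase and read DNA methylation were followed in injured sensory ganglia of mice given MS275 or its vehicle. They are 9 of the 44345 gene rows of the deposited RNA files: the methyltransferases Dnmt1, Dnmt3a and Dnmt3b, the dioxygenases Tet1, Tet2 and Tet3, the methyltransferase partner Uhrf1, and the methyl-CpG-binding proteins Mbd1 and Mbd2. They were taken by name, with earlier results of these data known, and all 9 were among the 16819 genes with enough reads to be tested. Transcripts of Tet1 and Tet2 were lower with MS275, by 36.5% and 21.1%, and none of the 9 passed as higher. Dnmt3b was lower in each MS275 library than in any vehicle library but did not pass the test over all genes.

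The tissue was the lumbar dorsal root ganglia, L4 to L6, of C57BL/6 mice aged 6 to 8 weeks, collected 24 h after cutting the dorsal columns of the spinal cord. MS275 mice were injected intraperitoneally with 12 mg/kg of MS275 (entinostat), which inhibits class I histone deacetylases, at injury and 2 h before collection; vehicle mice received the Tween80, PEG300 and DMSO carrier on the same schedule. Each RNA library pooled 2 mice, with 3 libraries per treatment. Open chromatin (ATAC-seq, which marks DNA that a transposase can reach) came from 3 mice per treatment, combined into 1 peak list each. All mice of both groups carried the injury and no uninjured group was analysed here, so every value below is a difference between drug and vehicle after injury. The samples are whole ganglia, which hold sensory neurons, satellite glia, Schwann cells, vessels and immune cells.

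DNA methylation places a methyl group on cytosine, in mammals mostly where cytosine is followed by guanine (CpG). Dnmt3a and Dnmt3b set new marks, and Dnmt1 copies existing marks after DNA replication with the help of Uhrf1, which binds sites methylated on the old strand alone. Tet enzymes oxidise the methyl group, after which thymine DNA glycosylase and base excision repair can restore plain cytosine; Mbd proteins bind methylated CpG and bring in repressor complexes that include histone deacetylases. In mouse dorsal root ganglia, Tet3 and Uhrf1 have been tied to the regrowth programme that follows peripheral nerve injury, and Dnmt3a to neuropathic pain.

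Of the 9 genes Tet1 and Tet2 passed as lower, while Tet3 and Dnmt3b did not pass. Promoters of the 3 Tet genes and of Dnmt3b are printed. A promoter of Dnmt1, the copying methyltransferase, is added for comparison. Each holds 250 bases before to 50 bases after an annotated start (RefSeq, GRCm38.p6), read 5′ to 3′ on the strand of the gene, with every CpG in capitals. The table held promoters of 7 of the 9 genes, and Mbd1 and Mbd2 are named only.
Tet1, chr10:62887275-62887574, minus strand: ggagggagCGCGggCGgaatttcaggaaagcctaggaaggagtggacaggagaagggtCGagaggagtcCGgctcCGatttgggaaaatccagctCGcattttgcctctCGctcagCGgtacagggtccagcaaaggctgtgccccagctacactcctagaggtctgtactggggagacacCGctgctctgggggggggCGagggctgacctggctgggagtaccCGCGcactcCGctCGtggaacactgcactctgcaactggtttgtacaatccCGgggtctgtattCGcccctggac
Tet2, chr3:133544341-133544640, minus strand: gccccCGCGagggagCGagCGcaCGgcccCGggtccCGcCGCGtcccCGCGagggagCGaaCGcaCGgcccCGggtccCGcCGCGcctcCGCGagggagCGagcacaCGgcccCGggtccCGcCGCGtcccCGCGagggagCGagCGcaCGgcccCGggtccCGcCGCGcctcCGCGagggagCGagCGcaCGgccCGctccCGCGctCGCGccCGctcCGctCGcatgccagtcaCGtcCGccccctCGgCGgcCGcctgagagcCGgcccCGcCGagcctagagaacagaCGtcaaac
Tet3, chr6:83441629-83441928, minus strand: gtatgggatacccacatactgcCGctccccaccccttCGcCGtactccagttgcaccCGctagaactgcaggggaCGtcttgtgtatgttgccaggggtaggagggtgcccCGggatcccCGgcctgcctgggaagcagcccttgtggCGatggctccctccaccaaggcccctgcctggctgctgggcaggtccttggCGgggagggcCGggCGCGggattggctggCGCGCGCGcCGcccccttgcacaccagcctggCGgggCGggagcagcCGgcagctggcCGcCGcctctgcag
Dnmt3b, chr2:153649199-153649498, plus strand: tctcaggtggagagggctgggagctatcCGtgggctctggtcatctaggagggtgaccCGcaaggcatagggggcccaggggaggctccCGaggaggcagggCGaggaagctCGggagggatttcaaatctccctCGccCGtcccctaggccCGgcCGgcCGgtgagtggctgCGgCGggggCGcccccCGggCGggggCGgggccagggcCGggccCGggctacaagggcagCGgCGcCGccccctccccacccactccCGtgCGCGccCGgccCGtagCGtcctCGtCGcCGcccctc
Dnmt1, chr9:20952574-20952873, minus strand: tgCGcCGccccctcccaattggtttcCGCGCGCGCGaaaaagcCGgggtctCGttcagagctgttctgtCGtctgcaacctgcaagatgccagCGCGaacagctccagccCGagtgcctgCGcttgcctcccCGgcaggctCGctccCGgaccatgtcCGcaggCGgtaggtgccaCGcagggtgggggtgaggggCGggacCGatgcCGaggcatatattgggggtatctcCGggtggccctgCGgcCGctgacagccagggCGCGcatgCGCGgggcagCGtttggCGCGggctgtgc

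The Tet2 promoter held 57 CpG. Of the 32851 RefSeq promoters, 99.8% held fewer, and their median was 7. The Tet1 promoter was poorer, with 17 CpG, and 68.6% of promoters held fewer. Tet3 held 22, Dnmt3b 30 and the printed Dnmt1 promoter 33 CpG. Other annotated Dnmt1 promoters, not printed, held 12 and 2 CpG. The letters GGGCGG (a GC box, searched on both strands, overlaps with other motifs allowed) occurred 4 times in the Dnmt3b window, 2 times in those of Tet3 and Dnmt1, and 1 time in those of Tet1 and Tet2; 35.7% of all promoters hold at least 1. The letters TGACGTCA, the cyclic AMP response element, occurred in none of the 5 windows and in 1.79% of all promoters. The printed promoters of Tet1 and Tet2, the genes called lower, thus differed in CpG content. These counts describe the letters only, and which start gave the reads was not measured.

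Among the erasers, Tet1 and Tet2 fell with MS275 and Tet3 did not pass the test. Tet1 had 2.47, 3.68 and 3.42 CPM (reads scaled to the normalised library size) in MS275 replicates 1, 2 and 3, against 4.88, 5.26 and 4.89 CPM in vehicle replicates 1, 2 and 3. All 3 MS275 libraries lay below all 3 vehicle libraries, and the lowest was MS275 replicate 1. The mean was 3.19 ± 0.637 CPM with MS275 and 5.01 ± 0.215 CPM with vehicle (SD, n = 3 each), a log2 fold change of -0.65 (SE 0.15, adjusted p = 0.0286, edgeR quasi-likelihood test with Benjamini-Hochberg adjustment over all genes tested). The reads behind these levels numbered 118, 202 and 118 in MS275 libraries and 223, 321 and 194 in vehicle libraries. In whole tissue, fewer cells of a type and less RNA per cell cannot be told apart.

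Tet2 had 7.11, 7.13 and 7.24 CPM in the MS275 libraries, against 9.23, 9.14 and 8.86 CPM in the vehicle libraries. The groups did not overlap, with 7.16 ± 0.0709 CPM in MS275 libraries and 9.08 ± 0.196 CPM in vehicle libraries (SD, n = 3 each). The log2 fold change was -0.34 (SE 0.08, adjusted p = 0.0255, edgeR). Tet2 is the Tet enzyme with no DNA-binding CXXC domain of its own, and Cxxc4, whose protein can bind it in cell lines, is described below.

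Tet3, the family member tied to injury responses in ganglia, had 24.5, 28.1 and 27.9 CPM with MS275, against 25.3, 26.0 and 26.1 CPM with vehicle. The groups overlapped, since MS275 replicate 1 was the lowest of the 6 libraries and the other MS275 libraries were the highest. The log2 fold change was 0.06 (SE 0.07, adjusted p = 0.620, edgeR), with a 95% interval from -0.09 to 0.21.

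The ratio of Tet1 to Tet3 reads within a library does not depend on library scaling. It averaged 0.118 ± 0.0155 with MS275 and 0.194 ± 0.00747 with vehicle (SD, n = 3 each), and the ratio of Tet2 to Tet3 reads averaged 0.268 ± 0.0198 with MS275 and 0.352 ± 0.0130 with vehicle. Neither ratio overlapped between the groups. In an exact two-sided permutation test each gave p = 0.1, the smallest p that 3 libraries against 3 allow (0.175 adjusted over 7 ratios, which were chosen after the values were seen). Tet1 to Tet2 also did not overlap, at 0.445 ± 0.0874 with MS275 and 0.552 ± 0.0234 with vehicle, with the same exact p = 0.1.

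Among the writers none passed the test. Dnmt3b, a methyltransferase that sets new marks, was scarce, with 0.313, 0.237 and 0.232 CPM in MS275 libraries, against 0.481, 0.639 and 0.454 CPM in vehicle libraries. These rest on 15, 13 and 8 reads with MS275 and 22, 39 and 18 reads with vehicle. The 3 MS275 libraries lay below the 3 vehicle libraries, and the log2 fold change was the largest of the 9 in size at -1.01 (SE 0.31). Its p was 0.00904 before adjustment and 0.0654 after (edgeR), which misses the threshold of 0.05, and the 95% interval ran from -1.71 to -0.32. At this depth the counts give the size only loosely.

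Dnmt3a, the other methyltransferase of new marks and the usual one in mature neurons, had 24.5, 24.6 and 25.4 CPM with MS275 and 25.0, 26.3 and 24.9 CPM with vehicle. The libraries of both groups overlapped (log2 fold change -0.03, SE 0.06, adjusted p = 0.726, edgeR), with a 95% interval from -0.16 to 0.09. Dnmt1, the copying methyltransferase, had 27.9, 27.2 and 31.0 CPM with MS275, against 31.2, 30.1 and 31.3 CPM with vehicle. MS275 replicate 3 lay among the vehicle libraries and the other MS275 libraries below them (log2 fold change -0.11, SE 0.06, adjusted p = 0.293, edgeR).

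Uhrf1, which brings Dnmt1 to newly replicated sites and is known from dividing cells, had 0.878, 0.309 and 0.203 CPM with MS275 and 0.634, 0.672 and 0.404 CPM with vehicle. MS275 replicate 1 was the highest library of all and the other MS275 libraries were the lowest, with 42, 17 and 7 reads in MS275 and 29, 41 and 16 in vehicle. The log2 fold change was -0.28 (SE 0.48, adjusted p = 0.738, edgeR), and -1.12 (adjusted p = 0.0890) without MS275 replicate 1. The division marker Mki67 was also highest in that library. Its reads numbered 283, 83 and 91 in MS275 replicates 1, 2 and 3. In vehicle replicates 1, 2 and 3 they numbered 94, 157 and 78. By CPM, the division genes Top2a, Ccnb1, Cdk1, Mcm2 and Rrm2 were also highest in that library, while Birc5, Mcm5, Pcna and Tyms were not. Of the 10 division genes on the marker list 0 passed (edgeR; 0 at an unadjusted p under 0.05), and their summed level was 51.12 to 65.46 CPM with MS275 and 55.01 to 58.66 CPM with vehicle; their part in the Uhrf1 values was not tested.

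Neither reader passed the test. Mbd2, which recruits the NuRD deacetylase complex to methylated CpG, had 73.5, 67.3 and 70.7 CPM with MS275, against 67.9, 65.4 and 67.2 CPM with vehicle. MS275 replicate 2 lay within the vehicle range and the other MS275 libraries above it (log2 fold change 0.08, SE 0.05, adjusted p = 0.292, edgeR). Mbd1, which binds methylated CpG and also has CXXC domains for DNA, had 23.2, 23.4 and 23.8 CPM with MS275 and 22.1, 24.8 and 23.6 CPM with vehicle. It averaged 23.5 ± 0.339 CPM with MS275 and 23.5 ± 1.37 CPM with vehicle (SD, n = 3 each; adjusted p = 0.981, edgeR), and the 95% interval of its log2 fold change ran from -0.14 to 0.14.

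**Figure D1:**
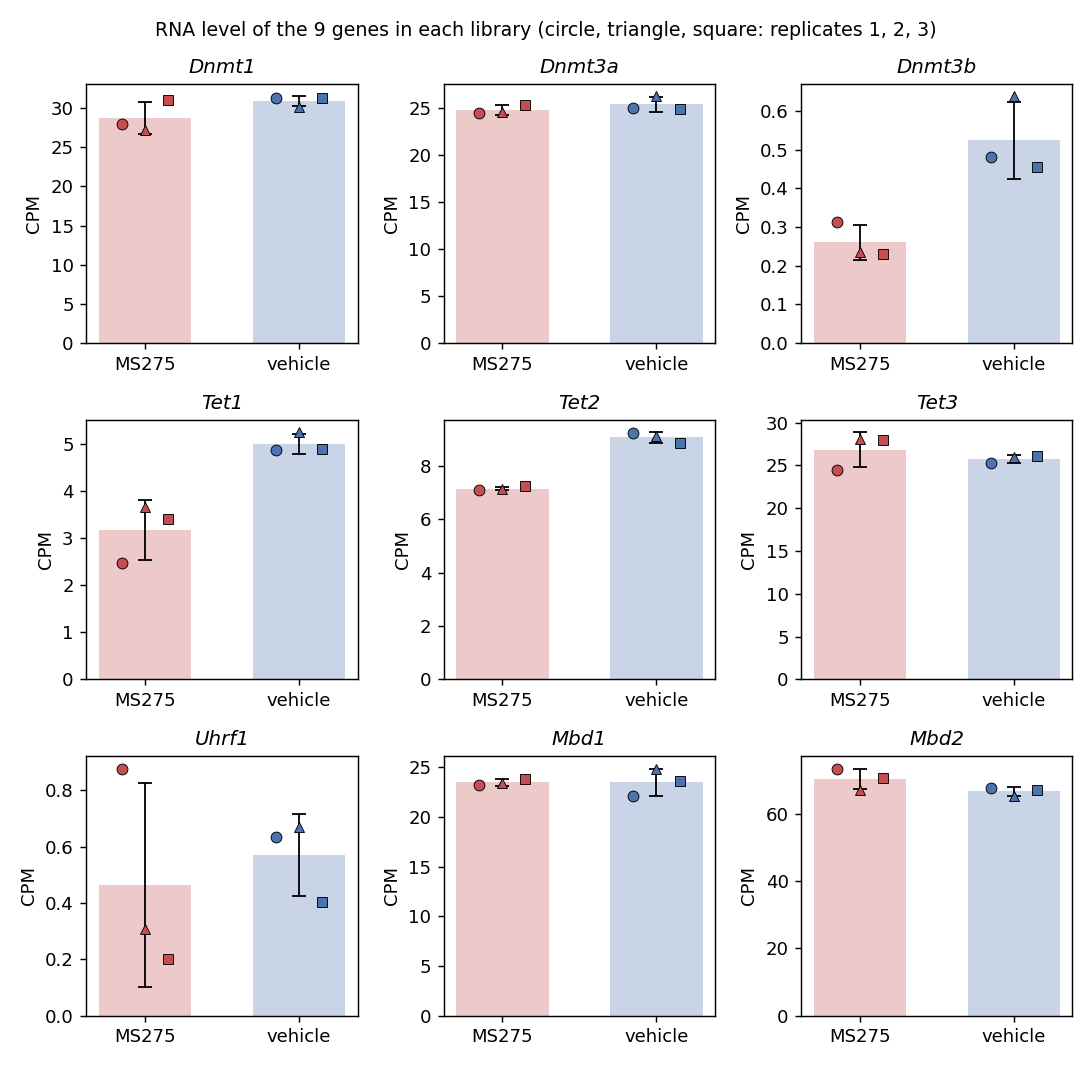
RNA level in CPM of each of the 9 genes, with MS275 libraries left and vehicle libraries right; bars are means, error bars SD (n = 3), and symbols the replicates. Tet1, Tet2 and Dnmt3b have all MS275 libraries below all vehicle libraries, and the other genes overlap.

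In counts, 2 of the 9 genes passed as lower (22.2%), where 5.89% of all genes tested were lower, and 0 passed as higher, where 5.10% were. At an unadjusted p under 0.05, 3 were lower, where 14.9% of all genes tested were, and 0 higher, where 13.6% were (edgeR; 28.5% in either direction). DESeq2 and limma voom each called 2 lower and 0 higher. In either direction 11.0% of all genes tested were called. The MS275 libraries lay below the vehicle libraries for 3 of the 9 genes, against 17.9% of all genes tested, and above them for 0, against 15.9%. The median log2 fold change was -0.11 over the 9 genes and 0.002 over all genes tested, with 7 negative and 2 positive values among the 9.

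Both Tet calls depended on single libraries. Without vehicle replicate 1, 2 or 3 or without MS275 replicate 3, neither gene passed, with adjusted p for Tet1 of 0.0961, 0.124, 0.0791 and 0.0626 and for Tet2 of 0.107, 0.117, 0.0681 and 0.0576 (edgeR). The log2 fold change stayed between -0.78 and -0.49 for Tet1 and between -0.36 and -0.33 for Tet2 over the 6 fits that each left out 1 library. MS275 replicate 1 stood apart from the other libraries, with skeletal muscle, neutrophil and red cell transcripts above those of any other. The summed level of the 9 muscle genes was 641, 92.8 and 95.57 CPM in MS275 replicates 1, 2 and 3, against 14.74, 7.126 and 56.19 CPM in vehicle replicates 1, 2 and 3; all 9 passed as higher in edgeR, 7 in DESeq2 and 0 in limma voom. Without MS275 replicate 1, Tet1 fell by 0.49 (adjusted p = 0.0289) and Tet2 by 0.33 (adjusted p = 0.0405) on the log2 scale. With the muscle level as a covariate the log2 fold change was -0.31 for Tet1 (adjusted p = 0.558, edgeR). For Tet2 it was -0.31 (adjusted p = 0.361, edgeR). That fit called 25 of all genes. The muscle sums did not overlap between the groups, so muscle level and treatment cannot be fully told apart in it.

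**Figure D2:**
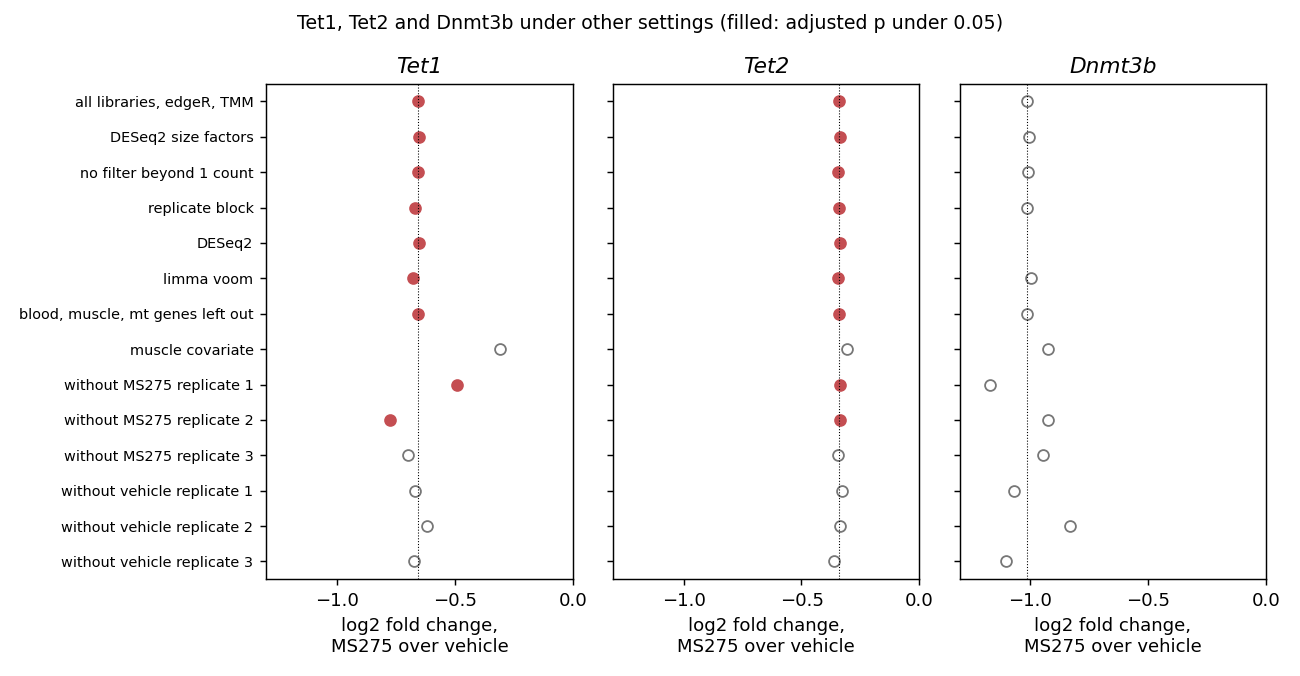
Log2 fold change, MS275 over vehicle, of Tet1, Tet2 and Dnmt3b under each fit; filled points have an adjusted p under 0.05, and the dotted line is the value with all libraries. All points lie below 0, those of Tet1 and Tet2 lose the threshold in the same 5 fits, and no Dnmt3b point is filled; DESeq2 gave Dnmt3b no adjusted p and it has no point there.

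Cells that define the ganglion were present in all libraries. The 12 sensory neuron genes summed to 24090 to 26950 CPM with MS275 and 23220 to 24250 CPM with vehicle, with 0 passed (5 higher at an unadjusted p under 0.05, edgeR; 2 in DESeq2 and 1 in limma voom). The 7 satellite glia genes summed to 4112 to 4510 CPM with MS275 and 3950 to 4148 CPM with vehicle (1 higher, 1 lower), and the 7 Schwann cell genes to 5322 to 5990 CPM with MS275 and 4839 to 5894 CPM with vehicle. Endothelial genes, 3 of 6 higher, summed to 110.4 to 131.3 CPM with MS275 and 89.99 to 100.1 CPM with vehicle. The 7 Schwann cell and 6 macrophage genes had 0 passed and 0 at an unadjusted p under 0.05 (edgeR), with macrophage sums of 34.89 to 41.32 CPM with MS275 and 35.3 to 37.49 CPM with vehicle. The 7 neutrophil genes had 0 passed and 3 at an unadjusted p under 0.05, and summed to 246.2, 42.61 and 71.51 CPM in MS275 replicates 1, 2 and 3, against 64.9, 59.04 and 38.42 CPM in vehicle replicates 1, 2 and 3. The 3 red cell genes found in the files (0 passed, 0 unadjusted) summed to 142.2, 31.49 and 48.66 CPM with MS275 and 63.28, 51.09 and 63.75 CPM with vehicle. No marker gene was at 0 in all libraries, and the part of cell makeup in the Tet values was not tested. Libraries held 34992533 to 56542966 assigned reads with MS275 and 39148369 to 60370523 with vehicle.

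Around the 9 genes, 36 further genes of the pathway were followed, of which 35 had enough reads to test. MS275 raised 3 and lowered 6 of them (8.57% and 17.1% of those tested, against 5.10% and 5.89% of all genes tested), and DESeq2 and limma voom gave the same counts. At an unadjusted p under 0.05 there were 14, 3 higher and 11 lower, which is 40.0% of those tested against 28.5% of all genes tested. Dnmt3l, a cofactor of Dnmt3 enzymes in germ cells, had 5, 7 and 5 reads with MS275 and 5, 6 and 3 with vehicle and was not tested. The median log2 fold change of the 35 was -0.08. In either direction 9, 10 and 6 passed without MS275 replicate 1, 2 or 3, and 1, 0 and 5 without vehicle replicate 1, 2 or 3 (edgeR).

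Among partners of the writers and suppliers of methyl groups, 1 of 7 rose and 1 fell. Each is 14.3%, against 5.10% higher and 5.89% lower of all genes tested. Zfp57, a zinc finger protein that keeps methylation at imprinted loci, had 3.62, 3.99 and 3.13 CPM with MS275, against 2.25, 1.88 and 2.32 CPM with vehicle (log2 fold change 0.74, SE 0.15, adjusted p = 0.0179, edgeR). Trim28, the corepressor that Zfp57 binds, had 63.8, 58.4 and 67.2 CPM with MS275, against 77.1, 74.5 and 72.8 CPM with vehicle (log2 fold change -0.25, SE 0.06, adjusted p = 0.0239). The MS275 libraries thus lay above all vehicle libraries for Zfp57 and below them for Trim28.

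Among eraser partners and repair factors, 1 of 12 rose and 2 fell (8.33% and 16.7%, against 5.10% and 5.89% of all genes tested). Tdg, the glycosylase that removes the bases Tet enzymes oxidise, had 10.3, 11.7 and 10.6 CPM with MS275, against 13.6, 13.8 and 13.7 CPM with vehicle (log2 fold change -0.33, SE 0.07, adjusted p = 0.0239, edgeR). Its groups did not overlap, and its fold change was close to that of Tet2. Idh1 and Idh2 encode the cytosolic and mitochondrial isocitrate dehydrogenases that make 2-oxoglutarate, the cosubstrate of Tet enzymes. Idh1 fell (156 ± 8.31 CPM with MS275, 187 ± 2.40 CPM with vehicle, SD, n = 3 each; log2 fold change -0.26, adjusted p = 0.0110), while Idh2 rose (23.2 ± 2.47 CPM with MS275, 18.5 ± 0.475 CPM with vehicle; 0.33, adjusted p = 0.0355). The damage-induced Gadd45a, Gadd45b and Gadd45g did not pass, with log2 fold changes of 0.07, 0.19 and 0.002.

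The other readers of methylated CpG did not pass in any of 8 cases (edgeR; 3 lower at an unadjusted p under 0.05, and 0 in DESeq2 and limma voom). Mbd3, a NuRD subunit that in mammals binds methylated CpG poorly, had 50.9, 50.6 and 54.4 CPM with MS275, against 58.1, 56.5 and 58.1 CPM with vehicle (log2 fold change -0.15, SE 0.04, adjusted p = 0.0617, edgeR). Its groups did not overlap, and it missed the test over all genes.

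Proteins that bind unmethylated CpG through a CXXC domain held 4 of the 9 pathway calls. Of 8 tested, 1 was higher and 3 lower (12.5% and 37.5%, against 5.10% and 5.89% of all genes tested). Cxxc4 rose, with 24.7, 22.7 and 22.6 CPM with MS275 and 19.3, 19.9 and 19.8 CPM with vehicle (log2 fold change 0.25, SE 0.06, adjusted p = 0.0354, edgeR). Kmt2a and Kmt2b, methyltransferases of histone H3 lysine 4, fell. Kmt2a had 39.3, 44.8 and 39.0 CPM with MS275, against 55.8, 55.1 and 51.1 CPM with vehicle (-0.39, SE 0.06, adjusted p = 0.00802), the smallest adjusted p of the pathway. Kmt2b averaged 25.1 ± 2.39 CPM with MS275 and 33.1 ± 2.55 CPM with vehicle (SD, n = 3 each; -0.40, SE 0.08, adjusted p = 0.0190). Kdm2a, a demethylase of histone H3 lysine 36, averaged 78.5 ± 3.08 CPM with MS275 and 93.4 ± 3.76 CPM with vehicle (-0.25, SE 0.05, adjusted p = 0.0132). Of these 4 and the 5 further pathway genes that passed, none passed with the muscle covariate.

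**Figure D3:**
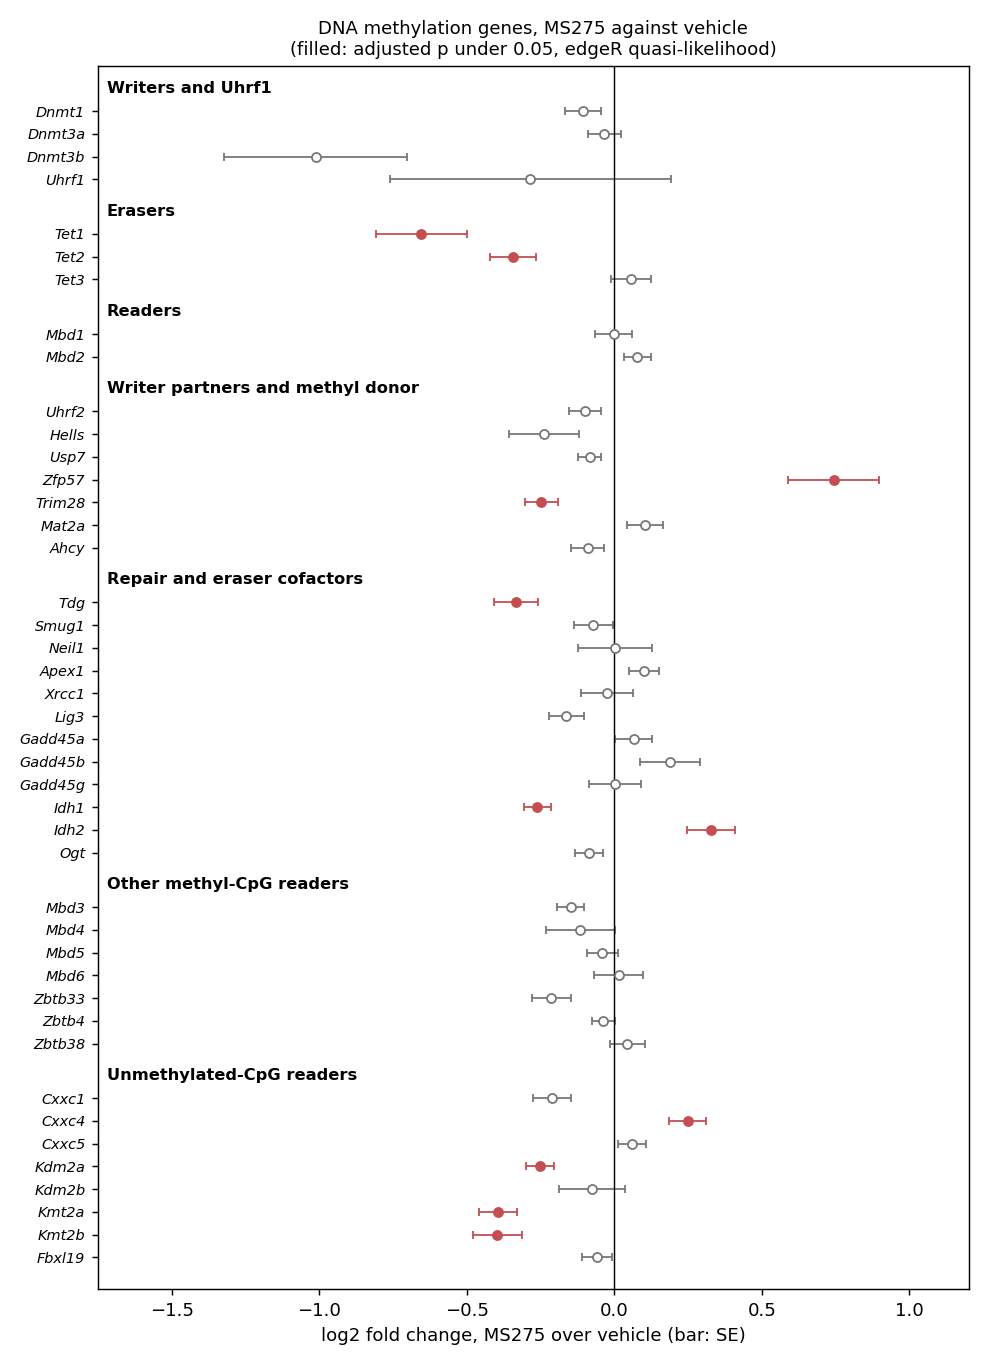
Log2 fold change, MS275 over vehicle, with its SE, of the 9 genes and of pathway genes, grouped by role; filled points have an adjusted p under 0.05 (edgeR). Tet1 and Tet2 are the filled points among the 9, and of the 9 filled pathway points Zfp57, Idh2 and Cxxc4 lie above 0.

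The genes whose pattern over the 6 libraries lay nearest to that of each lower Tet gene were taken from 13080 genes of at least 1 on the log2 CPM scale, by the root mean square difference of centred log2 CPM. For Tet1 these were BC067074 (difference 0.0608), Lrrtm1 (0.0780) and Siah1b (0.0826), with log2 fold changes of -0.69, -0.58 and -0.65. For Tet2 they were Zfp334 (0.0190), Rsf1 (0.0245) and Ncapd3 (0.0270), with log2 fold changes of -0.36, -0.35 and -0.33. Fold changes like those of the Tet genes follow from this choice, which used the same 6 libraries. Shared regulation was not tested.

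The ATAC lists carry no replicate spread, and the values that follow are the authors' fold enrichment and extent within each list, described without a test. Overlapping entries were merged into 161788 regions in the MS275 list and 177906 in the vehicle list, and the MS275 list covered 86.9% of the length of the vehicle list. At the 9 genes, with 1000 bp on either side, there were 92 regions in the MS275 list and 115 in the vehicle list, and the covered length was 85.2% of that in the vehicle list. The length at these genes was thus near the share of the whole lists. Of the regions at the genes, 65.2% in the MS275 list and 53.0% in the vehicle list overlapped a region of the other list, against 52.8% and 47.5% in the whole lists. Among regions with a -log10 q of at least 5 the MS275 comparison turned, with 66.7% at the genes against 75.6% in the whole MS275 list, and with 62.5% against 53.9% for the vehicle list.

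Starts were open under both treatments at all 7 genes with a RefSeq start in the table, where 45.3% of 27025 genes have one in a region of both lists. Of their 12 annotated starts 9 lay in a region of both lists, against 43.2% of all starts. All 7 genes had enough reads to be tested. The genes and starts behind both shares were not chosen by reads or matched for expression. The printed Tet2 start lay in a region with 6.53-fold enrichment and 1269 bp in the MS275 list and 6.22-fold and 1702 bp in the vehicle list, at the 98.9 percentile of fold in the MS275 list and the 99.0 percentile in the vehicle list. The printed Tet1 start lay in a weaker region, 2.06-fold and 1134 bp in the MS275 list and 2.17-fold and 1166 bp in the vehicle list. The printed Tet3 start lay in a region with 3.79-fold and 837 bp in the MS275 list and 4.10-fold and 1302 bp in the vehicle list. The annotated Tet3 gene extends upstream of this start. At that end a region had 2.75-fold over 2510 bp in the MS275 list and 2.10-fold over 1602 bp in the vehicle list. The vehicle list held a further region of 1.37-fold over 537 bp beside it. The printed starts of Tet1 and Tet2 thus lay in regions of both lists.

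The strongest Tet1 region was not at the start but inside the gene, with its summit 21.9 kb from the start. In the MS275 list it was 3.78-fold over 682 bp, with a second region of 1.72-fold over 316 bp beside it; in the vehicle list both places were 1 region of 1763 bp and 4.29-fold (chr10:62865115-62866877, mm10). Tet2 held an intragenic region 26.8 kb from its start, with 3.16-fold in the MS275 list and 2.49-fold in the vehicle list. The fold was thus lower in the MS275 list at this Tet1 region and higher at this Tet2 region.

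For Dnmt3b the start region had 2.61-fold over 1600 bp in the MS275 list and 2.35-fold over 1839 bp in the vehicle list, with 4 regions in all in the MS275 list and 7 in the vehicle list. The printed Dnmt1 start lay in a region of 4.94-fold in the MS275 list and 4.63-fold in the vehicle list. The same region held another annotated start, not printed, which lay nearer its summit. Summit minus start was 22 bp (MS275 list) and 14 bp (vehicle list) there, against -334 and -342 bp for the printed start. A further annotated Dnmt1 start upstream lay in a vehicle-list region of 1.56-fold alone. Dnmt3a, a long gene, held 26 regions in the MS275 list and 36 in the vehicle list, with a wide start region of 2860 bp in the MS275 list and 3174 bp in the vehicle list. Uhrf1 had 1 region in the MS275 list, at its start (3.94-fold), and 4 in the vehicle list, where the start region had 4.35-fold and the other 3 at most 1.61-fold. Regions at the 9 genes found in a single list reached 2.54-fold in the MS275 list (at Mbd2, the 90.4 percentile of fold in that list) and 2.31-fold in the vehicle list (at Tet2, the 88.6 percentile).

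The readers stood highest. The region at one end of Mbd1 had 8.38-fold in the MS275 list and 8.00-fold in the vehicle list, and that at one end of Mbd2 8.63-fold in the MS275 list and 8.33-fold in the vehicle list. Mbd2 was covered over more length in the MS275 list than in the vehicle list, at 134% of it with 16 against 12 regions, and Mbd1 at 101%. For the other genes this share ran from 36.5% for Uhrf1 to 88.5% for Tet3, and was 77.9% for Tet1 and 75.9% for Tet2.

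**Figure D4:**
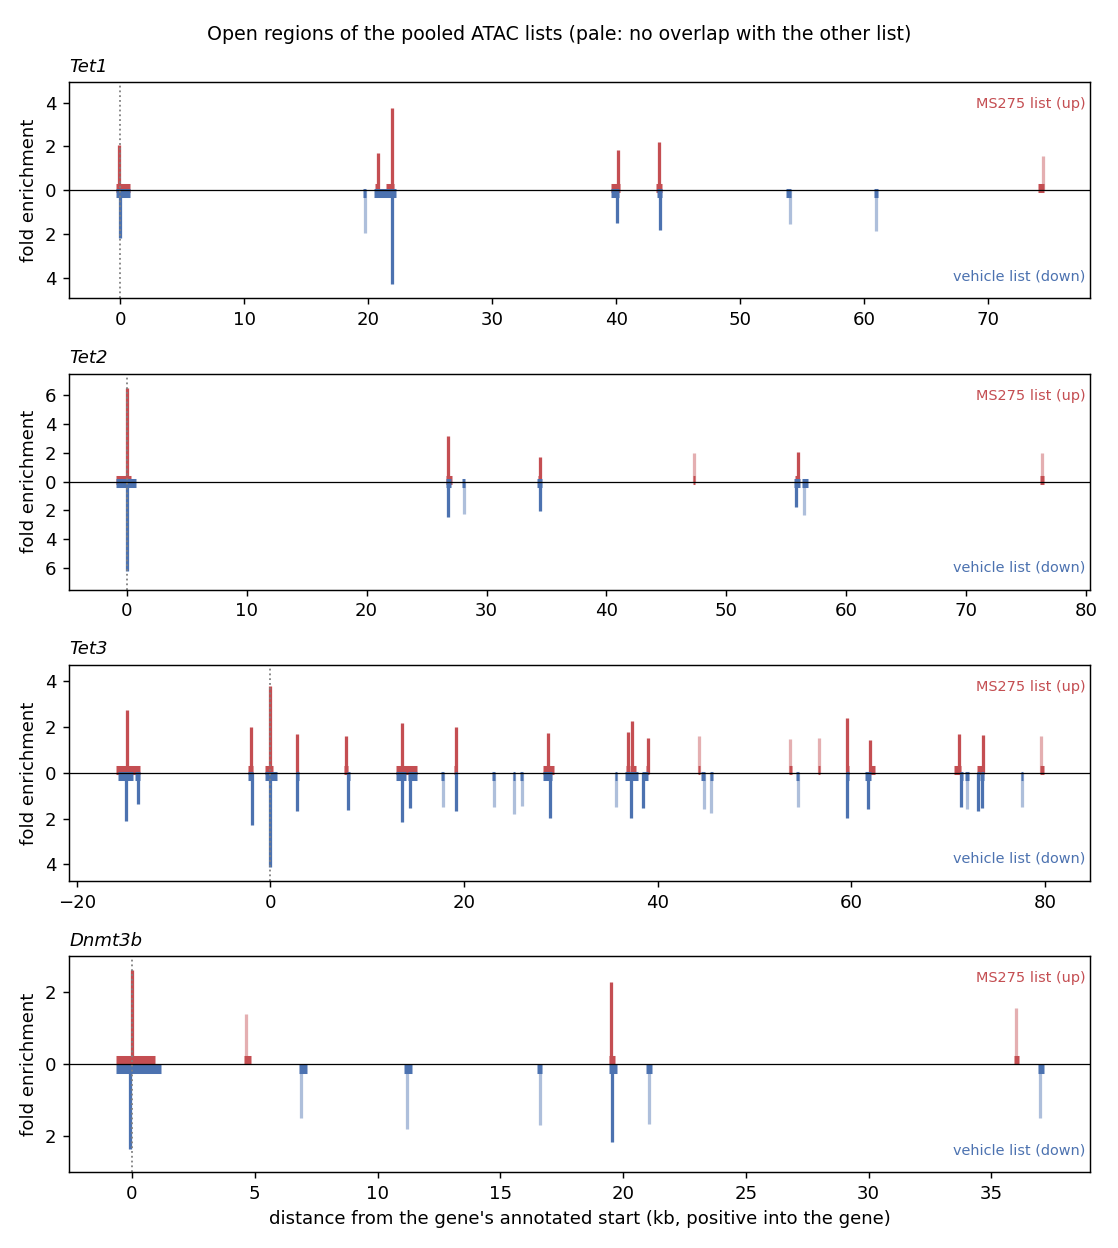
Open regions at Tet1, Tet2, Tet3 and Dnmt3b by distance in kb from the annotated start, with the authors' fold enrichment upward for the MS275 list and downward for the vehicle list; thick bars are extents and pale lines regions found in that list alone. Each start lies in a region of both lists, and the tallest Tet1 line lies 21.9 kb inside the gene.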

How the data were processed

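RNA libraries (poly(A), strand-specific kit, pairs of 75 bp, per the labels' protocols) were deposited by the authors as whole-number read counts per gene symbol. FastQC 0.10.1, R 3.5.0, limma 3.38.3, edgeR 3.24.3, STAR 2.7.0 and the build mm10 are named, without roles, per the submitters' processing notes. The names of the counter and the ATAC caller, and the strand setting, were not given in the sources used here. The split of reads between overlapping genes is therefore unknown; of the annotated genes overlapping the 9, only B230319C09Rik, at Tet3, has a row (30, 40 and 27 reads with MS275, 18, 33 and 31 with vehicle). The 5 rows naming no gene (18.89% to 20.56% of reads) stayed out. The deposited ATAC peak lists hold the authors' score, fold enrichment ratio, summit offset, and -log10 of p-values and q-values, for combined replicates; their read depth is unknown here.

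The test was the quasi-likelihood test of edgeR 4.0.16 (R 4.3.3, TMM, filterByExpr with a minimum count of 10, treatment only, two-sided, Benjamini-Hochberg over 16819 genes, adjusted p under 0.05; biological coefficient of variation 8.62%) after a test on simulated data. CPM use normalised library sizes; SD is between libraries. P-values measure the spread between pools of mice, which the design text calls biological replicates. The 9 genes, the pathway and marker lists and their tests were chosen with earlier results of these data known. Named genes are the 9, the pathway genes that passed with Mbd3, Tdg and Dnmt3l, and the 3 nearest patterns per called gene; other genes were named after their values were seen, and 1 gene the rule takes is not reported here. Kmt2a and Kmt2b are rows Mll1 and Wbp7. Levels are not per length and were not compared between genes. Overlapping peaks of a list were merged, and lists were compared by at least 1 shared bp. Promoters and gene positions are RefSeq's, GRCm38.p6 (mm10). Alternatives covered normalisation, filter, replicate block, each library left out, DESeq2 1.42.0, limma voom 3.58.1, a muscle covariate, muscle, blood and mitochondrial genes left out, other thresholds and, in the peak lists, only entries with -log10 q of 5 or more, equal list sizes, windows of 500 and 2500 bp and an overlap of 50%.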

Additional observations from a re-analysis of the deposited data

How the results depend on the processing

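Of the 9 genes 2 passed with all libraries and settings as reported. The count was 0 with the muscle covariate, 0 at an adjusted p under 0.01 and 3 under 0.10, and 0 to 2 with 1 library left out. For the 9 of 35 pathway genes the count was 0 with the covariate, 1 at an adjusted p under 0.01, 13 under 0.10, and 0 to 10 with 1 library left out. Over all genes 1849 passed, 25 with the covariate, 350 under 0.01 and 3229 under 0.10. With 1 library left out it was 261 (without vehicle replicate 2) to 2763 (without MS275 replicate 2). The covariate, left-out and replicate block fits all have fewer residual degrees of freedom than the main fit. The muscle level was higher in every MS275 library than in any vehicle library. Muscle level and treatment therefore cannot be fully told apart in the covariate fit. The replicate numbers showed no clear pairing of the libraries. Correlations of deviations were 0.0192, 0.111 and -0.0611 for same-numbered libraries and -0.149 to 0.113 for the others. These few correlations cannot exclude pairing. The replicate block left 2 of the 9 genes, 9 pathway genes and 2088 of all genes passing. Among the 9 genes the sign of the log2 fold change turned for Dnmt3a with the covariate (0.0213) and for Mbd1 with DESeq2 size factors (0.00202), in DESeq2 (0.00126) and with the covariate (0.0408). With 1 library left out the range for Mbd1 was -0.0424 to 0.0389. For Uhrf1 it ran from -1.12 without MS275 replicate 1 to 0.0278 without MS275 replicate 3. The Uhrf1 value was -1.13 with the covariate. The cause was not tested. At a -log10 q of at least 5 the 9 genes held 30 ATAC regions in the MS275 list and 32 in the vehicle list. Depth limits Dnmt3b and Uhrf1, and the lists have no replicate spread.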
